A study of Mus musculus with 11 samples.

Results

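The macrophage genes described here are 10 symbols, all of them present in a table of 31168 genes: C1qa, C1qb, C1qc, Cd163, Mrc1, Adgre1, Cd68, Lyz2, Cx3cr1 and Ccr2. They were chosen by name, as markers of resident macrophages (the C1q genes, Cd163 and Mrc1), of monocytes (Ccr2) and of the wider lineage. All 10 passed the filter on low counts, which kept 15911 genes. RNA was measured in distal ileum of 11 mice, 6 WT and 5 dIEC, all of which had received dextran sodium sulfate, a polysaccharide that injures the intestinal lining. WT mice were H2-Ab1 fl/fl; Villin:Cre- and dIEC mice were H2-Ab1 fl/fl; Villin:Cre+. Both groups thus carried floxed alleles of H2-Ab1, which encodes a chain of the MHC-II protein I-A. No mice without dextran sodium sulfate were among the samples. The villin promoter drives Cre recombinase in intestinal epithelial cells, not in macrophages. The design text of the series writes Cre- for both groups, so the genotype given with each single sample was used. The sources used here do not give age, sex, litter, cage, or the dose and duration of treatment. Each library was taken as 1 mouse, and a replicate number only names a library.

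Macrophages of the intestinal wall take up microbes and dying cells and help to keep the epithelium in repair. Most of those in the mucosa are replaced from blood monocytes, which enter the tissue through the chemokine receptor CCR2, and lose it while they acquire CX3CR1, F4/80, CD163 and CD206. Others, including those of the muscle layer, are long-lived. C1q, the first component of the classical complement pathway, is assembled from the chains encoded by C1qa, C1qb and C1qc, and tissue macrophages are a main source of it. None of the remaining markers is private to macrophages: Ccr2 and Cx3cr1 are also used by some T cells and dendritic cells, and Mrc1 by some endothelial cells.

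Total counts per library ran from 6603965 to 9681698, of which protein-coding genes held 1510296 (dIEC replicate 5) to 3215574 (WT replicate 9). Values are given as CPM, counts per 1000000 after scaling by the trimmed mean of M-values (TMM), and 1 count was worth 0.0940 to 0.204 CPM. H2-Ab1 had a mean of 83.1 CPM in the 6 WT libraries (SD 27.4) and 26 CPM in the 5 dIEC libraries (SD 9.87), and the groups did not overlap (two-sided exact permutation p = 0.00433, the smallest that 462 splits can give). The ileal gene Fabp6, a bile acid carrier, had 411 to 2883 counts per library, whereas Lct and Gata4, genes of the upper small intestine, had at most 7 and 3. Of the genes listed as colon markers, Car4 had 189 to 922 counts and Car1 0 to 26, and Hoxb13 was not among the genes counted. Of other macrophage markers, Csf1r had 93 to 274 counts and Mertk 126 to 410, but Fcgr1 only 2 to 16. Of monocyte markers, Ly6c2 had 2 to 40 counts and Chil3 0 to 19. The neutrophil genes S100a8 and S100a9 had at most 2 and 4 counts, and 9 fixed neutrophil markers in the table summed to 18 to 38 counts per library. WT replicate 8 stood apart from the other WT libraries: its 21 absorptive enterocyte markers summed to 11610 CPM where the rest of WT had 3164 to 5899, and its 12 pan-leukocyte markers to 64.8 CPM where the rest had 82.2 to 126.5. Ribosomal counts took 26.2 (WT replicate 4) to 49.2% (dIEC replicate 5) of a library and 43.4% in WT replicate 8, with means of 34.6 in WT and 40.5 in dIEC, and their part in the results was not tested.

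No macrophage gene differed between dIEC and WT after adjustment over all genes. The quasi-likelihood test of edgeR called 0 of the 10, and DESeq2 also 0. Over the whole table edgeR called 1 of 15911 genes (0.00628%), the metallothionein gene Mt1 (named after its value was seen), and DESeq2 called 11 (0.0692%). No gene was called lower by edgeR, so H2-Ab1, whose groups did not overlap, did not pass this test either. A result of 0 among the 10 thus does not show that they were unchanged. At an unadjusted p under 0.05, 1 of the 10 passed (Ccr2, lower in dIEC), against 10.7% of all genes in either direction, 5.79% lower and 4.87% higher. Of the 10, 7 had a log2 fold change below 0, against 51.2% of all genes. Their median log2 fold change was -0.12, beside -0.01 over all genes. The groups overlapped for all 10 genes, and 0.566% of all genes had groups that did not overlap. These are bulk tissue libraries, in which fewer cells of a type and less RNA per cell cannot be told apart.

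**Figure D1:**
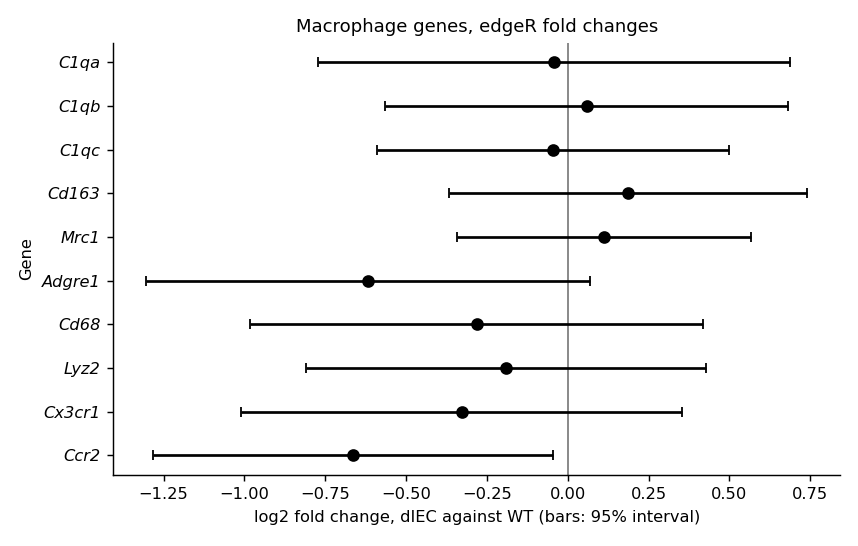
edgeR log2 fold change of each macrophage gene, dIEC against WT (x axis), by gene (y axis), with bars for the 95% interval (6 WT and 5 dIEC libraries). The resident genes lie around 0, between -0.05 for C1qc and 0.19 for Cd163, while Adgre1 and Ccr2 lie lowest, at -0.62 and -0.66.

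The 3 C1q genes sit next to each other on chromosome 4, all on the minus strand. In GRCm38 (GENCODE vM21) C1qb lies at chr4:136880129-136886187, C1qc at chr4:136889804-136893065 and C1qa at chr4:136895917-136898803. Mrc1 lies on the plus strand at chr2:14229392-14332057 and Cd68 on the minus strand at chr11:69664213-69666153. Promoter sequence from RefSeq (GRCm38.p6) matched 8 of the 10 genes, all but C1qa and Adgre1. It was searched for GAGGAA, the purine-rich core bound by PU.1, the ETS factor that macrophages need to form, in the 250 bases before each gene's start in RefSeq. That start can differ from the GENCODE start given here. The Cx3cr1 window and most of the Ccr2 and C1qc windows lie inside the GENCODE gene, and the Mrc1 and Lyz2 windows overlap it in smaller part. Either strand counted, so that TTCCTC is the same word on the other strand, and the word shares bases with binding words of other ETS factors. It occurred in 4 of the 8 promoters (C1qb, C1qc, Mrc1 and Cd68) and in 7639 of 32851 promoters of the table (23.3%). The search found no match in the windows of Cd163, Lyz2, Cx3cr1 and Ccr2, which says only that these letters are not there. The windows of 60 bases below show where the word lies, in capitals, in the genes that hold it, each read 5′ to 3′ on the strand of the gene. Their positions are chr4:136886201-136886260 (minus strand) for C1qb, chr4:136893075-136893134 (minus strand) for C1qc, chr2:14229207-14229266 (plus strand) for Mrc1, which holds 3 matches, 2 of them in the printed window, and chr11:69666361-69666420 (minus strand) for Cd68.
C1qb: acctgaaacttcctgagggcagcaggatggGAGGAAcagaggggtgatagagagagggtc
C1qc: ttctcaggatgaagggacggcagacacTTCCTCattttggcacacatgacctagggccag
Mrc1: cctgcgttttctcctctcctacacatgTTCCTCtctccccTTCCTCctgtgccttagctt
Cd68: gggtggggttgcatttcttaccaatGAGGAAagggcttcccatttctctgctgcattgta

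The chains of C1q did not differ between the groups beyond the spread of the libraries. C1qa, the A chain, ran in WT from 3.45 to 15.5 CPM with a median of 10.8, and in dIEC was 15.5, 7.86, 5.09, 13.8 and 8.56 CPM in replicates 1, 3, 5, 6 and 11. The lowest value of all belonged to WT replicate 8, and the dIEC values lay within the WT range. The group means were 10.4 ± 4.21 CPM (WT) and 10.1 ± 4.32 CPM (dIEC), a log2 fold change of -0.04 ± 0.34 (SE) with a 95% interval from -0.77 to 0.69 (edgeR adjusted p = 0.975).

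C1qb, the B chain, ran in WT from 4.65 to 16.0 CPM with a median of 9.40, and in dIEC was 16.2, 7.97, 6.92, 13.5 and 8.70 CPM in replicates 1, 3, 5, 6 and 11. C1qc, the C chain, ran in WT from 4.91 to 13.4 CPM with a median of 8.63, and in dIEC was 14.3, 6.62, 7.74, 7.75 and 6.08 CPM in the same order. For both chains dIEC replicate 1 was the highest library of all and WT replicate 8 the lowest, and the groups overlapped. The log2 fold change was 0.06 ± 0.29 for C1qb (95% interval from -0.56 to 0.68, edgeR adjusted p = 0.958) and -0.05 ± 0.25 for C1qc (from -0.59 to 0.50, adjusted p = 0.962). Without dIEC replicate 1, the C1qc value was -0.32 and the C1qb value -0.14.

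The scavenger receptors of resident macrophages also did not pass the test. Cd163 encodes the receptor that clears haemoglobin bound to haptoglobin, and lies at chr6:124304656-124330527 on the plus strand. Cd163 ran in WT from 4.65 to 9.96 CPM with a median of 7.33, and in dIEC was 11.4, 8.20, 3.67, 9.02 and 8.56 CPM in replicates 1, 3, 5, 6 and 11. Both the highest and the lowest of the 11 values were dIEC libraries (replicates 1 and 5), so that the WT range lay inside the dIEC range. The means were 7.22 ± 2.31 CPM (WT) and 8.17 ± 2.82 CPM (dIEC), a log2 fold change of 0.19 ± 0.26 with a 95% interval from -0.37 to 0.74 (edgeR adjusted p = 0.811).

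Mrc1 encodes CD206, the mannose receptor that takes up glycoproteins and microbial sugars. Mrc1 ran in WT from 8.49 to 18.2 CPM with a median of 13.8, and in dIEC was 22.1, 11.9, 10.8, 17.6 and 12.3 CPM in replicates 1, 3, 5, 6 and 11. The highest value was again dIEC replicate 1 and the lowest again WT replicate 8. The means were 13.8 ± 3.42 CPM (WT) and 14.9 ± 4.79 CPM (dIEC), and the log2 fold change of 0.11 ± 0.21 had a 95% interval from -0.34 to 0.57 (edgeR adjusted p = 0.872). Of 14 endothelial markers, 13 were below 0, with a median log2 fold change of -0.28 and summed levels of 78.3 to 182 CPM in WT and 91.8 to 132 CPM in dIEC. Their part in the Mrc1 value was not tested.

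**Figure D2:**
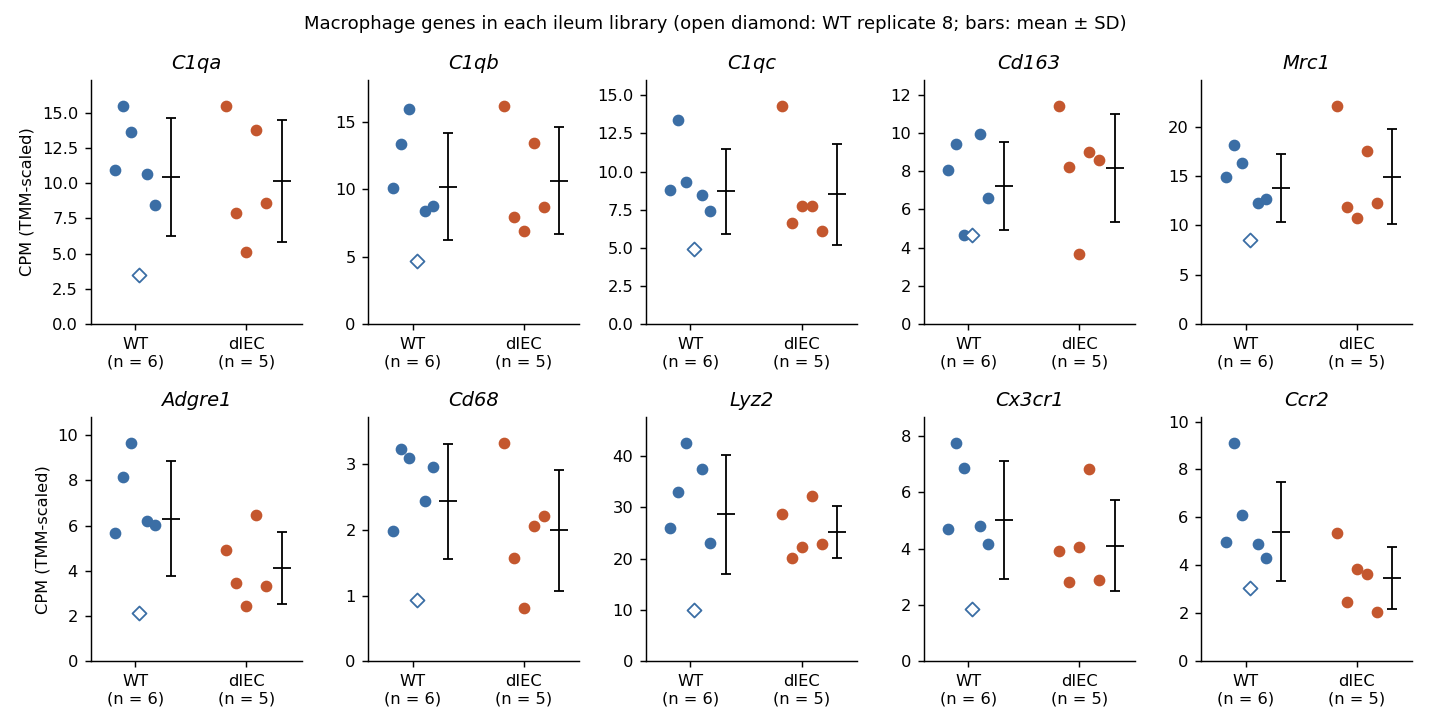
CPM of each macrophage gene in every library (points) by group, with the mean and SD of each group (6 WT, 5 dIEC). In all 10 genes WT replicate 8 is the lowest WT library, and the groups overlap in each gene.

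Adgre1 and Cd68 mark macrophages of any origin. Adgre1 encodes F4/80, an adhesion receptor of the macrophage surface, at chr17:57358691-57483527 on the plus strand. Adgre1 ran in WT from 2.12 to 9.65 CPM with a median of 6.12, and in dIEC was 4.91, 3.48, 2.44, 6.49 and 3.31 CPM in replicates 1, 3, 5, 6 and 11. Of the 5 dIEC libraries 4 lay below the WT median, yet the lowest library was WT replicate 8. The means were 6.31 ± 2.55 CPM (WT) and 4.13 ± 1.59 CPM (dIEC), a log2 fold change of -0.62 ± 0.32 with a 95% interval from -1.30 to 0.07 (edgeR p = 0.0744, adjusted p = 0.493; exact permutation p of the CPM = 0.147). Across the 11 libraries Adgre1 had Pearson correlations of -0.83 with the absorptive enterocyte markers and 0.77 with the endothelial markers. With fibroblast and matrix markers it had 0.73, with the pan-leukocyte markers 0.58 and with smooth muscle markers 0.34. Without WT replicate 8 these 5 values were -0.79, 0.67, 0.67, 0.36 and 0.31. The mean of the C1q chains had, in the same order over all 11 libraries, -0.50, 0.72, 0.44, 0.85 and 0.04. The part of tissue make-up in the Adgre1 value was not tested.

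Adgre1 did not pass the test in either fit, but its value was larger without WT replicate 8, at -0.79 ± 0.23 (edgeR adjusted p = 0.0769). In that fit 319 of 15794 genes passed the adjusted threshold (2.02%), and none of the 10 macrophage genes did. At an unadjusted p under 0.05 Adgre1 and Ccr2 passed there, both lower, against 9.82% of all genes lower. Cd68 encodes a glycoprotein of the lysosome and was the most thinly counted of the 10, with 4 to 31 counts per library. It ran in WT from 0.929 to 3.24 CPM with a median of 2.70, and in dIEC was 3.32, 1.57, 0.815, 2.06 and 2.21 CPM in replicates 1, 3, 5, 6 and 11. The groups overlapped, and the log2 fold change was -0.28 ± 0.33 (edgeR adjusted p = 0.766). Counting error alone gave a relative SD of 23.6% per library at its mean count, and the libraries varied by 35.9% in WT and 46.1% in dIEC.

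Lyz2 encodes lysozyme M, the bacterial cell wall enzyme of macrophages, monocytes and neutrophils, and lies at chr10:117277331-117282321 on the minus strand. Its close copy Lyz1, the lysozyme of Paneth cells, lies at chr10:117287797-117292868 on the same strand. Lyz2 was the most abundant of the 10 genes, with 76 to 399 counts per library. It ran in WT from 10.1 to 42.5 CPM with a median of 29.5, and in dIEC was 28.6, 20.2, 22.2, 32.3 and 22.9 CPM in replicates 1, 3, 5, 6 and 11. The dIEC libraries all lay within the WT range, and 4 of the 5 below the WT median. The log2 fold change was -0.19 ± 0.28 (edgeR adjusted p = 0.829), and -0.37 ± 0.17 without WT replicate 8 (adjusted p = 0.248).

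The copy matters for Lyz2 because Lyz1 had 19.6 to 69.3 times as many counts, and the sources used here do not say how reads that fit both were counted. The coding sequences of the pair, in GENCODE vM21, are each 444 bases long and differ at 22 positions (95.05% identity). Of the 1267 windows of 50 bases in the Lyz2 transcript, 195 (15.4%) also occur in Lyz1. The first 120 coding bases (chr10:117282123-117282242 for Lyz2 and chr10:117292719-117292838 for Lyz1, both minus strand) show how close they are, with capitals for the 11 bases at which they differ.
Lyz2: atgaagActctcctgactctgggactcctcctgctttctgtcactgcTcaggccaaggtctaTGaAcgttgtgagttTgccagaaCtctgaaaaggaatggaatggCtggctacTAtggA
Lyz1: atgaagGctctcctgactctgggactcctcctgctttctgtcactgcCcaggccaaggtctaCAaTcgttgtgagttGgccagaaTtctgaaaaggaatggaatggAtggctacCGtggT
Across the 11 libraries log2 CPM of Lyz2 and Lyz1 had a Pearson correlation of 0.15, given as a description. Lyz1 was 861 ± 318 CPM in WT and 811 ± 192 CPM in dIEC. Reads of Lyz1 counted at Lyz2 cannot be told apart from Lyz2's own in these counts.

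Cx3cr1 and Ccr2, both on chromosome 9, are the chemokine receptors of the lineage. Cx3cr1, the receptor of fractalkine that macrophages of the mucosa gain as they mature, lies at chr9:119901616-120069879 on the minus strand and shares 78 exon bases with the antisense gene Gm33858. In WT it ran from 1.86 to 7.73 CPM with a median of 4.74, and in dIEC was 3.90, 2.81, 4.07, 6.80 and 2.90 CPM in replicates 1, 3, 5, 6 and 11. The means were 5.02 ± 2.08 CPM (WT) and 4.10 ± 1.62 CPM (dIEC), a log2 fold change of -0.33 ± 0.32 (edgeR adjusted p = 0.712). The dIEC libraries lay within the WT range.

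Ccr2, the receptor for CCL2 that marks monocytes newly come from blood, lies at chr9:124101950-124113557 on the plus strand. Ccr2 ran in WT from 3.05 to 9.09 CPM with a median of 4.93, and in dIEC was 5.35, 2.47, 3.87, 3.64 and 2.07 CPM in replicates 1, 3, 5, 6 and 11. The lowest libraries of all were dIEC replicates 11 and 3, both below the whole WT range, whereas dIEC replicate 1 lay above the WT median. The means were 5.40 ± 2.06 CPM (WT) and 3.48 ± 1.29 CPM (dIEC), from 15 to 87 counts per library. The log2 fold change was -0.66 ± 0.29 with a 95% interval from -1.28 to -0.05 (edgeR p = 0.0368, adjusted p = 0.444; DESeq2 adjusted p = 0.454; exact permutation p of the CPM = 0.0866). Without WT replicate 8 it was -0.78 ± 0.27 (edgeR adjusted p = 0.113), and without WT replicate 4, the library with the most Ccr2, it was -0.45. Across the 11 libraries Ccr2 had Pearson correlations of 0.79 with the endothelial markers and 0.64 with fibroblast and matrix markers. With the pan-leukocyte markers it had 0.40, with the absorptive enterocyte markers -0.64 and with smooth muscle markers 0.38. Without WT replicate 8 these 5 values were 0.80, 0.61, 0.32, -0.61 and 0.36. The part of tissue make-up in the Ccr2 value was not tested.

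Levels of different genes can be compared only per length, here CPM per kilobase of merged exon, as a mean over the 11 libraries. Lyz2 was highest at 20.6 CPM per kilobase, followed by C1qa at 9.90, C1qb at 9.56, C1qc at 4.46 and Mrc1 at 2.25. Then came Cd68 at 1.78, Adgre1 at 1.64, Cd163 at 1.40, Cx3cr1 at 1.02 and Ccr2 at 0.670. Lyz2 exceeded C1qa, C1qb exceeded C1qc and C1qc exceeded Mrc1 in 11 of 11 libraries. Within the groups some neighbours changed places: C1qb was above C1qa in dIEC (9.78 and 9.76), and Adgre1 was above Cd163 in WT (1.95 and 1.32) but below it in dIEC (1.27 and 1.5). Over all libraries, C1qa exceeded C1qb in only 7 of 11, Cd68 exceeded Adgre1 in 7 and Adgre1 exceeded Cd163 in 7, so these neighbours did not differ beyond their spread. Ccr2, the monocyte receptor, lay below Cx3cr1 in 10 of 11 libraries.

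Most of the variation of these genes ran between libraries of the same group. WT replicate 8 was the lowest WT library in all 10 genes and the lowest of all 11 in 7, at -1.39 to -0.43 from the mean of each gene on the log2 scale. dIEC replicate 1 was the highest of all 11 libraries in 5 genes, at -0.12 to 0.78 from the mean, WT replicate 4 in 3 and WT replicate 7 in 2. WT replicate 8 also had the highest summed enterocyte and the lowest summed leukocyte markers of the WT libraries, as given above, and the part of tissue composition in its low macrophage values was not tested. Without WT replicate 8 the log2 fold changes were -0.22 for C1qa, -0.09 for C1qb, -0.16 for C1qc, 0.09 for Cd163, 0.01 for Mrc1, -0.44 for Cd68 and -0.49 for Cx3cr1, beside those of Adgre1, Lyz2 and Ccr2 given above. Across the 5 dIEC libraries, replicate 5, which had the highest ribosomal share and the fewest protein-coding counts, was the lowest in 6 genes.

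**Figure D3:**
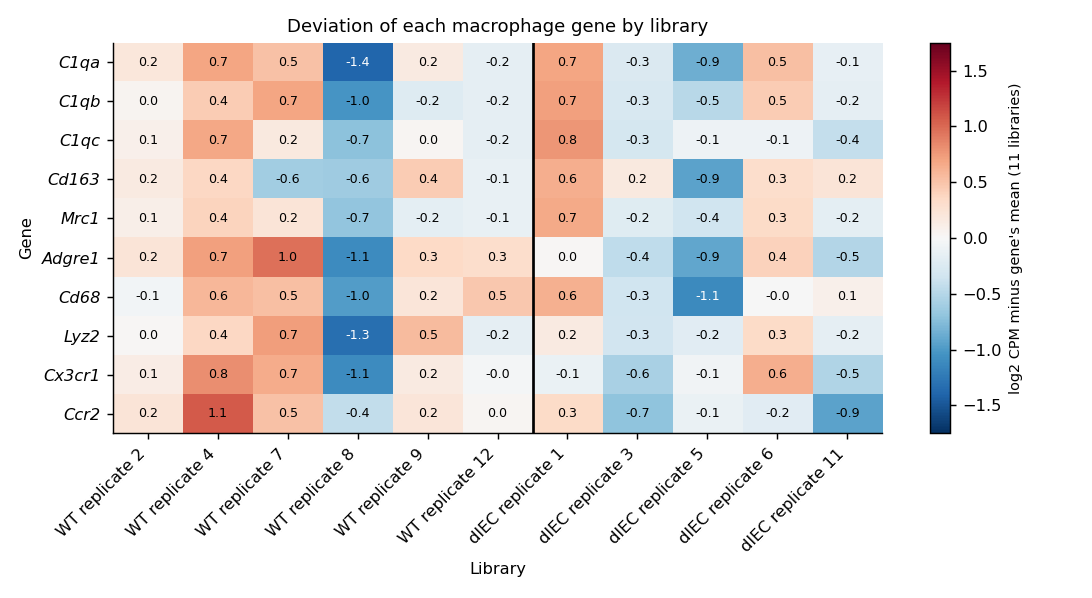
Difference of each gene's log2 CPM from its mean over the 11 libraries, by library and gene (colour scale in log2 units). WT replicate 8 is below the mean in all 10 genes, down to -1.39, and dIEC replicate 1 is above it in all but 1.

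Over the 11 libraries correlations among the 10 genes were all above 0, as a description over points that share library depth and tissue make-up. The 45 pairs of genes had Pearson correlations of log2 CPM between 0.13 and 0.96, with a median of 0.72, and between -0.06 and 0.94, with a median of 0.62, without WT replicate 8. The 3 pairs of C1q chains ran from 0.80 to 0.95, and from 0.70 to 0.91 without WT replicate 8. C1qb and Mrc1 gave the highest pair, at 0.96. Cd163 and Ccr2 gave the lowest, at 0.13. Cd163 followed the others least: without WT replicate 8 its correlation was -0.06 with Cx3cr1, 0.03 with Ccr2 and 0.11 with Lyz2. Ccr2 correlated with the 5 resident genes at 0.13 to 0.82, with a median of 0.59, and the 10 pairs among the resident genes themselves at 0.46 to 0.96. Without WT replicate 8 these ranges were 0.03 to 0.84 and 0.29 to 0.94.

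The genes most like the C1q chains and those most like Ccr2 were different ones. Among 12731 genes with an official symbol, log2 CPM of Mpeg1, a pore-forming protein of phagocytes, was closest to the mean of the C1q chains over the 11 libraries (Pearson correlation 0.97). Cyfip2 (0.95), the complement protease gene C1ra (0.94), the inhibitory receptor gene Pirb (0.94) and Cybb, a subunit of the phagocyte NADPH oxidase (0.93), followed, and Csf1r was the 10th, at 0.92. Closest to Ccr2 were Jmy (0.97), Qk (0.95), Camsap2 (0.95), Prickle2 (0.94) and the nuclear receptor gene Rora (0.94), with Csf1r at rank 332 (0.77). Mpeg1 was 34.6 CPM in WT and 32.2 CPM in dIEC, a log2 fold change of -0.10 ± 0.29, and C1ra was 15.4 and 15.1 CPM. The genes closest to Ccr2 were all below 0, at -0.23 for Jmy, -0.32 for Qk, -0.40 for Camsap2, -0.32 for Prickle2 and -0.35 for Rora. None of them passed the adjusted threshold. They were chosen by their likeness to Ccr2 over both groups, so part of this shared direction follows from the choice.

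Within a library the ratio of a resident marker to Ccr2 does not depend on how libraries are scaled. C1qa counts were 1.13 to 2.24 times those of Ccr2 in WT and 1.32 to 4.13 times in dIEC. For Cd163 the ratio was 0.764 to 2.04 in WT and 0.947 to 4.13 in dIEC. Both ranges overlapped, and the log2 ratio was 0.61 higher in dIEC for C1qa (two-sided exact permutation p = 0.0823) and 0.77 higher for Cd163 (exact p = 0.0909).

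For C1qc the ratio was 1.47 to 1.77 in WT and 2.00 to 2.93 in dIEC. C1qc thus gave a higher ratio in every dIEC library than in every WT library, with a log2 difference of 0.58 (exact permutation p = 0.00433). C1qb was 1.47 to 2.62 times Ccr2 in WT and 1.79 to 4.2 times in dIEC, a log2 difference of 0.71 (exact p = 0.0173). Mrc1, at 2.0 to 3.0 times in WT and 2.79 to 5.93 times in dIEC, differed by 0.72 (exact p = 0.0173). For both genes, the WT range was exceeded in 4 of 5 dIEC libraries. Without WT replicate 8 the differences of the 5 ratios ran from 0.47 (C1qa) to 0.81 (Cd163).

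The same ratio to Ccr2 was formed for all 15910 other genes, and the resident markers did not stand out among them. The mean ratio was higher in dIEC for 97.0% of the genes, an exact p under 0.05 with a higher ratio was reached by 15.4%, and the groups did not overlap for 0.817%. Adjusted over all these genes, p was 0.238 for each of the 5 resident markers. The median difference over all genes was 0.61 on the log2 scale, and C1qc, C1qa, C1qb, Mrc1 and Cd163 lay at percentiles 44.2, 50.2, 67.7, 69.5 and 77.0 of it. On the CPM scale, log2 fold changes were -0.66 for Ccr2 and -0.05 to 0.19 for the 5 resident markers. The mean log2 ratio of the 5 resident markers to Ccr2 was 0.857 ± 0.185 in WT (n = 6) and 1.53 ± 0.492 in dIEC (n = 5). Of the dIEC libraries, replicate 11 had the highest value, 2.02, and replicate 5 the lowest, 0.714, inside the WT range of 0.583 to 1.04.

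**Figure D4:**
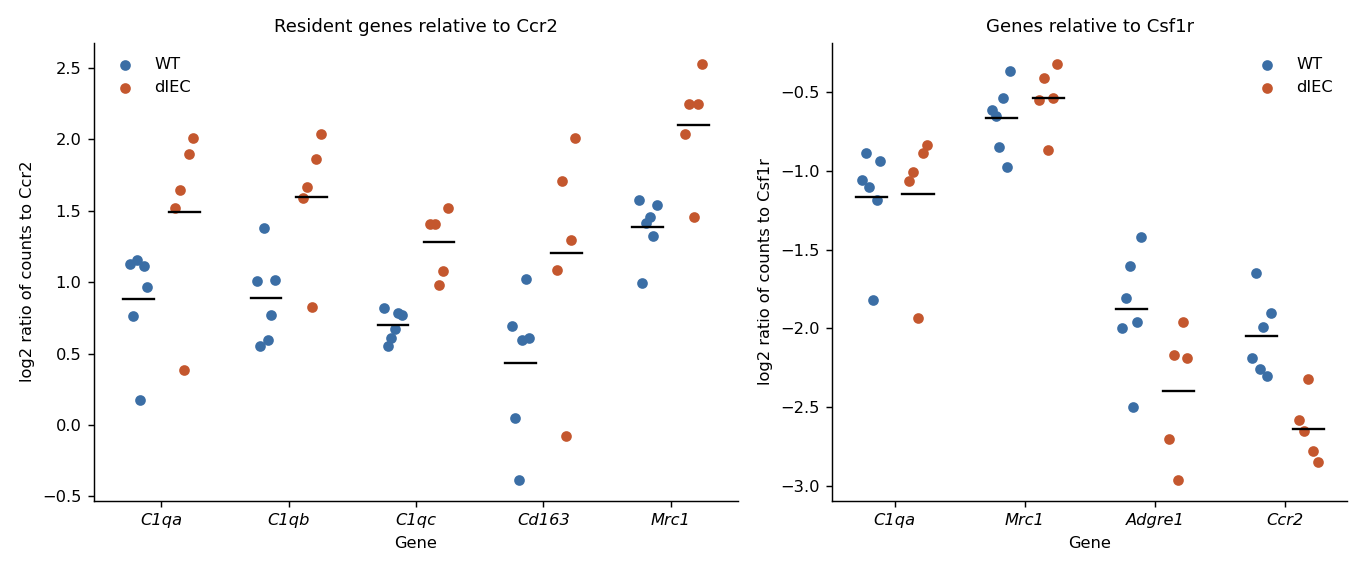
log2 ratio of counts (y axes) by gene (x axes) in every library (points; lines are group means; 6 WT, 5 dIEC), of the resident markers to Ccr2 (left) and of C1qa, Mrc1, Adgre1 and Ccr2 to Csf1r (right). C1qc to Ccr2 and Ccr2 to Csf1r are the ratios without overlap between the groups, and for the other 4 resident markers dIEC replicate 5 lies inside the WT range.

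Csf1r, the receptor for the growth factor on which macrophages depend, gives a measure against a gene of the whole lineage, and this comparison was added after the values had been seen. Csf1r itself was 22.3 ± 6.78 CPM (WT) and 21.8 ± 7.19 CPM (dIEC) (log2 fold change -0.04 ± 0.24). It shares 873 exon bases with Hmgxb3 on the other strand, and whether counting used strand is not stated in the labels. Ccr2 counts were 0.202 to 0.318 of Csf1r in WT and 0.135 to 0.196 in dIEC, so that every dIEC library lay below every WT library. The log2 difference was -0.59 (two-sided exact permutation p = 0.00433), where 1.54% of 15910 genes had an exact p under 0.05 and 0.126% did not overlap, and adjusted over all genes p was 1.0. Leaving out each library in turn gave -0.67 to -0.51. The gap between the groups was narrow, with dIEC replicate 5 (19 Ccr2 counts) at 0.196 and WT replicate 9 at 0.202. With 2 added to the counts in place of 0.5, the difference was -0.55 (two-sided exact permutation p = 0.00866). The groups were then no longer fully separated. Against Csf1r, Adgre1 differed by -0.52 (exact p = 0.0606), and the other 8 macrophage genes by -0.27 to 0.18.

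Other genes of resident macrophages did not move in 1 direction. Of 43 listed, 30 passed the filter on low counts, 15 above and 15 below 0. Their median log2 fold change was 0.02 beside -0.01 over all genes, and 0 passed the adjusted threshold in edgeR or DESeq2. At an unadjusted p under 0.05, 2 were higher and 2 lower, beside the 4.87% and 5.79% of all genes. Ctss, a lysosomal protease of antigen presentation, was 33.5 CPM in WT and 49.0 CPM in dIEC (0.55 ± 0.19). The growth factor gene Igf1 was 12.2 and 6.90 CPM (-0.82 ± 0.28), and the lipid enzyme gene Lpcat2 4.02 and 2.69 CPM (-0.58 ± 0.23). Igf1 is also made by fibroblasts, and all 18 tested fibroblast and matrix genes were below 0 (median -0.68, summed markers 761 to 1941 CPM in WT and 721 to 1211 CPM in dIEC). Their part in these values was not tested.

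Of 34 other genes of recruited monocytes and inflammatory cells, only 14 passed the filter on low counts, 10 above and 4 below 0, with a median of 0.15. Of all genes tested, 48.8% were above 0. At an unadjusted p under 0.05, 3 were higher and 1 lower, beside 4.87% and 5.79% of all genes, and 0 passed the adjusted threshold. Plac8 was 92.4 ± 19.5 CPM in WT and 161 ± 64.5 CPM in dIEC (0.80 ± 0.23), and Ly6a 8.70 ± 2.25 and 12.2 ± 3.36 CPM (0.50 ± 0.21). The iron-binding Lcn2 was 1.49 ± 0.487 and 4.4 ± 5.98 CPM (1.55 ± 0.68), so that its SD in dIEC exceeded its mean. It had 8 to 104 counts per library. The matrix proteoglycan gene Vcan was 8.50 and 4.07 CPM (-1.10 ± 0.32). Ly6c2, the surface antigen of classical monocytes, was 2.06 ± 1.25 and 1.58 ± 0.998 CPM (-0.38 ± 0.45). All 21 absorptive enterocyte genes were above 0 (median 0.59, and 1.07 without WT replicate 8). They summed to 3164 to 5899 CPM in 5 WT libraries, 11610 CPM in WT replicate 8 and 4357 to 10250 CPM in dIEC, and the part of the epithelium in the Plac8, Ly6a and Lcn2 values was not tested.

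Of 21 ligands and receptors that feed or attract these cells, 15 passed the filter on low counts, 6 above and 9 below 0, with a median of -0.04. Cx3cl1, which encodes fractalkine, the ligand of CX3CR1, was 27.8 ± 9.02 CPM in WT and 39.6 ± 9.19 CPM in dIEC (0.51 ± 0.21; edgeR adjusted p = 0.441). Ccl2, the ligand of CCR2, had 0 to 3 counts per library and was not tested. The chemokine gene Ccl6 (0.28 ± 0.15), the chemokine receptor gene Ccr1 (-0.24 ± 0.20) and the TGF-beta receptor gene Tgfbr1 (-0.13 ± 0.13) had the next lowest p-values, and none passed.

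Of 22 complement genes beside the C1q chains, 21 passed the filter on low counts, 9 above and 12 below 0, with a median of -0.03. Cd59a, an inhibitor of the membrane attack complex, was 10.8 CPM in WT and 6.74 CPM in dIEC (-0.69 ± 0.23; edgeR adjusted p = 0.427). Cd93 (-0.36 ± 0.21), the C5a receptor gene C5ar1 (0.45 ± 0.29) and the C1 inhibitor gene Serping1 (-0.22 ± 0.18) followed by p, and none passed. Of 18 other genes of dendritic cells, a list without Ccr2 and Cx3cr1, 12 passed the filter, 7 above and 5 below 0, with a median of 0.06. Itgae was 6.65 and 11.5 CPM (0.80 ± 0.23), Irf8 36.6 and 51.8 CPM (0.50 ± 0.15), Dpp4 142.8 and 235 CPM (0.72 ± 0.36) and Sirpa 12.1 and 9.50 CPM (-0.36 ± 0.23), none past the adjusted threshold. Dpp4 also belongs to the list of absorptive enterocyte genes, and the part of the epithelium in its value was not tested. The 12 pan-leukocyte genes had 9 above and 3 below 0, with a median of 0.23 (0.13 without WT replicate 8), and Ptprc, which encodes CD45, was 27.9 ± 7.52 CPM in WT and 33.4 ± 6.38 CPM in dIEC (0.26 ± 0.18). The part of leukocytes other than dendritic cells in the Itgae and Irf8 values was not tested. Without WT replicate 8 the list medians were -0.06 for the other resident macrophage genes, 0.07 for monocyte genes, -0.08 for factors and attractants, -0.18 for complement and -0.04 for dendritic cell genes.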

How the data were processed

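The members and gene lists were chosen with earlier results of these data known, and each list was described by its counts and median, without a set test. Per the labels' protocols, total RNA was sequenced from directional NEBNext Ultra libraries. Per the submitters' processing notes, TopHat2 and mm10 were used. Nothing in the labels names the counting tool, its strand setting or its annotation. What the authors deposited was 1 table of whole-number counts per gene, not normalized, as its values show. The row that names no gene (0.00778 to 0.0147% of a library) was left out.

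Genes kept by filterByExpr were tested with edgeR 4.0.16 (R 4.3.3; TMM factors, robust quasi-likelihood F test, Benjamini-Hochberg over 15911 genes, threshold 0.05), after a check of the script on simulated counts. DESeq2 1.42.0 was an alternative. Coordinates are from GENCODE vM21 (GRCm38), in which 99.2% of symbols occur. Ratios used counts with 0.5 added, and permutation tests enumerated all splits, which are 462 with all 11 libraries and fewer when a library is left out. Ratio p-values were adjusted over all genes in place of the planned adjustment over 5 ratios. Each p-value reflects the spread between the 11 libraries only. Counts of every pair of libraries within a group differed by more than counting noise (chi-square divided by its degrees of freedom: 10.7 to 72.4).

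The named genes are all 10 members, then in each list for other macrophage, monocyte and immune genes the 4 with the lowest edgeR p, with Ptprc, Csf1r, Ly6c2, Lyz1 and H2-Ab1 always named, and the 5 genes most correlated with the C1q chains and with Ccr2. Of the tissue lists, Paneth cell (7 of 11 genes above 0, median 0.04, and -0.02 without WT replicate 8) is given here only. So are smooth muscle (0 of 17 above 0, median -0.41) and gut position (5 of 5 above 0, median 0.63, and 0.97 without WT replicate 8). Those 5 position genes were the ileal genes Fabp6, Slc10a2, Slc51b and Nr1h4, and Car4 (0.74), listed as a colon marker. In all lists, 0 genes passed the adjusted threshold. Some genes that this rule would name are not reported here.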

Additional observations from a re-analysis of the deposited data

Results flagged for a closer look

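C1qc in dIEC replicate 1, at 14.3 CPM, stood apart from the other 4 dIEC libraries, which ran from 6.08 to 7.75 CPM. The gap was 0.796 of the range of the group, above Dixon's 95% critical value of 0.710 for 5 samples. Of 30 groups examined in this way (the 10 genes and the 5 ratios to Ccr2, in each group) 1 was picked out, and chance picks out about 1 in 20. Without this library the log2 fold change of C1qc was -0.32 in place of -0.05.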

How the results depend on the processing

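In all 18 alternatives 0 macrophage genes were called. The number of all genes called was 1, 11 with DESeq2, 2 with library size alone (1 higher, 1 lower), and 1 to 319 when each library was left out in turn (319 without WT replicate 8, 213 higher and 106 lower). Adgre1, Lyz2, Cx3cr1 and Ccr2 stayed below 0 in all 18 alternatives and Cd68 in all 17 it could be tested in. Ccr2 ran from -0.95 to -0.45, with edgeR or DESeq2 adjusted p between 0.113 and 0.722, and Adgre1 from -0.89 to -0.46, with adjusted p between 0.0769 and 0.729. C1qa, C1qb, C1qc and Mrc1 changed sign. When each library was left out, C1qa ran from -0.24 to 0.11, C1qb from -0.14 to 0.23, C1qc from -0.32 to 0.12 and Mrc1 from -0.073 to 0.21, while Cd163 stayed above 0 (0.04 to 0.35). Cx3cr1 ran from -0.59 to -0.16 and Cd68 from -0.53 to -0.12. Library size alone moved the median of all genes from -0.01 to -0.22, and gave -0.23 for C1qb, -0.033 for Cd163 and -0.16 for Mrc1. It also gave list medians of -0.30 for growth factors and attractants and -0.19 for dendritic cell genes. Leaving out libraries, the ratio to Ccr2 ran from 0.47 to 0.89 for C1qa and from 0.57 to 1.09 for Cd163. Without dIEC replicate 5 the exact permutation p was 0.00952 for both, the smallest that the remaining splits can give. Every resident marker's ratio to Ccr2 reached it there. The share of all genes that reach it was not computed, and with all libraries 97.0% of genes had a higher ratio in dIEC. The cause of the dependence on dIEC replicate 5 was not tested. Counts per library were fewest for Cd68 (4 to 31), and low for Cx3cr1 (14 to 74), Adgre1 (12 to 87) and Ccr2 (15 to 87). No paired analysis was possible because the groups share no replicate number.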

Other observations

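Against Ptprc, the gene of the leukocyte antigen CD45, 2 macrophage genes differed at an exact permutation p under 0.05, a comparison added after the values had been seen. Ccr2 counts were 0.138 to 0.257 of Ptprc in WT and 0.0545 to 0.151 in dIEC, a log2 difference of -0.90 (two-sided exact permutation p = 0.0217). Adgre1 counts were 0.103 to 0.327 of Ptprc in WT and 0.0873 to 0.161 in dIEC, a log2 difference of -0.83 (exact p = 0.0260). Both ranges overlapped, 11.3% of 15910 genes reached an exact p under 0.05 in either direction, and adjusted over all of them p was 0.422 for each. The other 8 macrophage genes differed by -0.58 (Cd68) to -0.13 (Cd163).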
